A study of Mus musculus with 7 samples.

Results

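The 10 genes described here are Fbxo32, Trim63, Foxo1, Foxo3, Pdk4, Klf9, Fkbp5, Tsc22d3, Ddit4 and Ddit4l, in cortical bone of mice with and without the floxed Efnb2 allele. They were found by their symbol among the 27179 genes of the count files, and all 10 were among the 15086 genes that passed the filters and were tested. They were chosen by values of these same libraries, so every value for them, including the difference between genotypes, is a description. RNA was sequenced from femora of 12-week-old female C57BL/6 mice, after the ends had been removed and the marrow flushed out. By the study's methods, mice were injected with calcein and were fasted for 12 h before bones were collected. There were 3 libraries labelled Dmp1Cre.EfnB2f/f, in which Cre driven by the Dmp1 promoter is active in late osteoblasts and osteocytes and the Efnb2 alleles are floxed, and 4 libraries labelled Dmp1Cre, cousin-bred controls that carry the same Cre. They are called f/f 1 to f/f 3 and control 1 to control 4, by their labels.

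Fbxo32 (atrogin-1) and Trim63 (MuRF1) are ubiquitin ligases that mark muscle proteins for degradation and are known for their induction in wasting skeletal muscle. Their transcription is driven there by FOXO factors, such as those encoded by Foxo1 and Foxo3, which enter the nucleus when insulin and Akt signalling is low, and by the glucocorticoid receptor. Pdk4, Klf9, Fkbp5, Tsc22d3 and Ddit4 are also known as targets of one or both. Ddit4 and its relative Ddit4l encode inhibitors of mTORC1, the kinase complex that promotes protein synthesis.

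Some facts of the libraries bear on all of these genes. Efnb2, the targeted gene, was at 17.9, 13.1 and 11.8 CPM (counts scaled to a common library size with TMM) in f/f 1 to f/f 3. This was above the 6.36 to 8.50 CPM of the controls, the opposite direction to a loss. The counts cover the whole gene and all cells of the flushed bone, so they cannot show whether the floxed region was lost in osteocytes. By PCR of that region, the study reported its loss in sorted osteocytes of mice with these alleles, and its presence in other cells. Total counts were 17245556 to 22075778 per library. The first principal component held 53.9% of the variance and set control 1 and control 4 apart. All 10 osteocyte and osteoblast markers examined were detected, down to 5 counts for Fgf23, but the sum of 20 skeletal muscle markers was larger than their sum in 6 of 7 libraries. Muscle sums were 65290, 75558 and 55414 CPM in f/f 1 to f/f 3, and 26477, 25399, 59984 and 22418 CPM in control 1 to control 4. In whole tissue, fewer cells of a type and less RNA per cell cannot be told apart. By the labels, f/f 1 and f/f 2 came from one parent cross, control 1 and control 2 from another, f/f 3 and control 3 shared the third, and control 4 came from a further one.

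Promoter sequence was available for 9 of the 10 genes, in 11 windows of 250 bases before to 50 bases after the start of the gene (RefSeq, GRCm38.p6). There was no window for Fbxo32. A FOXO motif (GTAAACA) and a core of the glucocorticoid receptor element (ACANNNTGT) were searched on both strands. Letters of at least one were found in the windows of 2 genes, Trim63 and Klf9. The sequences are shown because these genes belong to the group that moved together below. Capitals mark the motifs, and both stretches lie on the plus strand, at chr4:134314901-134314960 for Trim63 and chr19:23141101-23141160 for Klf9.
Trim63: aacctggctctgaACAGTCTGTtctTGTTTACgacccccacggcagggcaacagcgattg
Klf9: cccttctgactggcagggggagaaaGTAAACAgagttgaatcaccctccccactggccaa
In Trim63 the glucocorticoid receptor core began 206 bases before the start and the FOXO letters, on the minus strand, 194 bases before it, without overlap. In Klf9 the FOXO letters began 100 bases before the start. Of all 32851 windows of this length, 3.65% held the FOXO letters and 6.85% the glucocorticoid receptor core.

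Together with Pdk4, the ligases varied most among the 7 libraries. Fbxo32 was at 623, 765 and 57.0 CPM in f/f 1 to f/f 3, and at 109, 100.04, 152 and 29.1 CPM in control 1 to control 4. The levels of f/f 1 and f/f 2 were above every control, while f/f 3 was below all controls but control 4, so the groups overlapped. Its group levels were 482 ± 375 CPM (SD, n = 3) and 97.5 ± 50.8 CPM (SD, n = 4), and the log2 fold change was 2.30 (standard error 0.78). Trim63 was at 576, 937 and 48.0 CPM in f/f 1 to f/f 3, and at 104, 99.4, 131 and 27.4 CPM in the controls in the same order. Trim63 ordered the 7 libraries exactly as Fbxo32 did, with f/f 2 highest and control 4 lowest. Its group levels were 520.4 ± 447 CPM (SD, n = 3) and 90.6 ± 44.3 CPM (SD, n = 4), and the genotypes differed by 2.52 on the log2 scale (standard error 0.83). The ratio of Fbxo32 to Trim63 in CPM stayed between 0.816 and 1.19 over libraries in which Fbxo32 itself varied 26.3-fold and Trim63 34.2-fold.

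**Figure D1:**
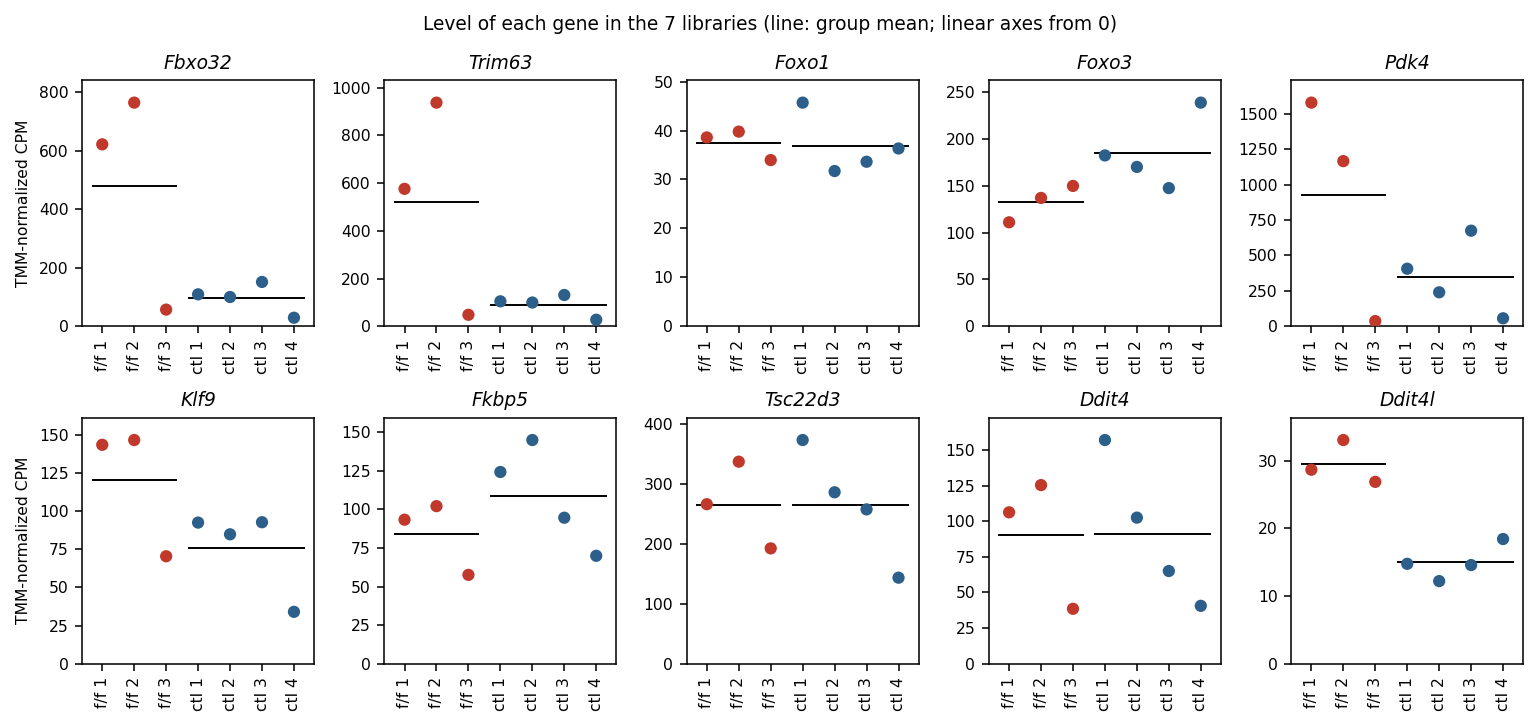
Level of each of the 10 genes in TMM-normalized CPM (vertical axes, linear from 0) in the 3 libraries labelled Dmp1Cre.EfnB2f/f (red, f/f) and the 4 Dmp1Cre controls (blue, ctl), with black lines at the group means. For Fbxo32, f/f 1 and f/f 2 lie at 623 and 765 CPM and f/f 3 at 57.0 CPM, and the groups are separate for Ddit4l alone.

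The FOXO factors themselves did not share this pattern. Foxo1 lay between 34.0 and 39.8 CPM in f/f 1 to f/f 3 and between 31.7 and 45.7 CPM in the controls. The log2 fold change of Foxo1, 0.02 (standard error 0.17), turned sign under other settings. Foxo3 was at 111, 137 and 149.8 CPM in f/f 1 to f/f 3, and at 182, 170.1, 147 and 239 CPM in control 1 to control 4. The lowest Foxo3 levels were thus in f/f 1 and f/f 2, which had the most Fbxo32, and the highest was in control 4, which had the least. Only f/f 3 and control 3 overlapped, and the log2 fold change was -0.48 (standard error 0.21).

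Pdk4 encodes the kinase that turns off pyruvate dehydrogenase and so spares glucose. It was at 1580.3, 1167 and 36.4 CPM in f/f 1 to f/f 3, and at 406, 240.0, 675 and 56.1 CPM in control 1 to control 4. Both the highest and the lowest level of the 7 libraries were thus in libraries with the same label. The log2 fold change was 1.43 (standard error 1.04), and it was 0.80 without f/f 1. Klf9, a zinc finger transcription factor, was at 144, 147 and 70.5 CPM in f/f 1 to f/f 3, and at 92.6, 84.9, 92.8 and 34.0 CPM in the controls. It ordered the libraries exactly as the ligases did, over a smaller range. The log2 fold change of Klf9 was 0.66 (standard error 0.38), and 0.41 without control 4.

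The other glucocorticoid targets separated f/f 3 and control 4 from the rest without separating f/f 1 and f/f 2 from the controls. Fkbp5, a co-chaperone that lowers the hormone affinity of the glucocorticoid receptor, was at 93.4, 102 and 57.6 CPM in f/f 1 to f/f 3, and at 124, 145, 94.7 and 70.0 CPM in the controls. The difference between labels was -0.36 on the log2 scale (standard error 0.29), -0.15 without f/f 3 and -0.19 without control 2. Tsc22d3, which encodes the anti-inflammatory protein GILZ, was at 266, 338 and 193 CPM in f/f 1 to f/f 3, and at 374, 286, 258 and 144 CPM in the controls. The group means of Tsc22d3 were 266 and 265 CPM. Ddit4 was at 106, 125 and 38.5 CPM in f/f 1 to f/f 3, and at 157, 102, 65.0 and 40.6 CPM in the controls. For Tsc22d3 and Ddit4 control 1 was the highest library, and both log2 fold changes, 0.00088 (standard error 0.33) for the former and -0.02 (standard error 0.50) for the latter, changed sign when single libraries were left out.

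Ddit4l differed from Ddit4 in its pattern. It was at 28.7, 33.1 and 26.9 CPM in f/f 1 to f/f 3, and at 14.8, 12.2, 14.6 and 18.4 CPM in control 1 to control 4. Every library labelled Dmp1Cre.EfnB2f/f, f/f 3 included, was above every control. Group levels were 29.6 ± 3.18 CPM (SD, n = 3) and 15.0 ± 2.57 CPM (SD, n = 4), and the log2 fold change was 0.98 (standard error 0.18), or 0.89 to 1.09 with any one library left out. Ddit4l was the only one of the 10 whose groups did not overlap in this direction, as did 5.04% of all genes tested.

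With edgeR's quasi-likelihood test, 0 of the 10 genes were higher and 0 were lower at an adjusted p under 0.05, as against 0.0% of all genes tested in each direction. Their adjusted p-values lay between 0.510 and 0.999 (Benjamini-Hochberg, over all genes tested). At an unadjusted p under 0.05, Fbxo32, Trim63 and Ddit4l were higher (3 of 10, as against 4.63% of all genes) and Foxo3 was lower (1 of 10, as against 5.03%), which is 1458 genes in all. These counts come from the contrast that chose the genes. DESeq2 called 24 genes higher and 48 lower (0.477% of all genes tested), Ddit4l among them. The study's limma pipeline without its day term called 1134 higher and 1118 lower (14.9% of all genes tested), with Fbxo32, Trim63, Klf9 and Ddit4l among them. The study's own fit, blocked on the day of collection, reported Fbxo32, Trim63 and Klf9 at a false discovery rate under 0.05. That fit was not repeated here, because the labels do not give the day.

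**Figure D2:**
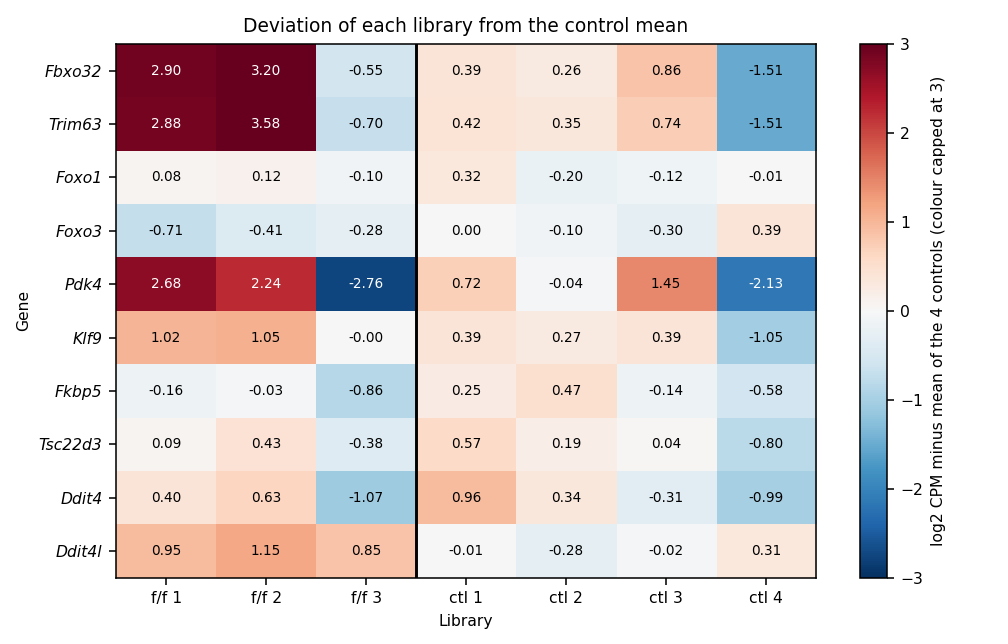
Log2 CPM of each gene in each library minus the mean of the 4 controls (colour and printed value; red higher, blue lower; colour capped at 3). Columns f/f 3 and ctl 4 are at or below 0 for Fbxo32, Trim63, Pdk4, Klf9, Fkbp5, Tsc22d3 and Ddit4, and f/f 1 and f/f 2 reach 2.90 and 3.20 for Fbxo32.

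Library by library, the 10 genes fell into an upper and a lower pattern, both picked after the values were seen. In the upper pattern f/f 1 and f/f 2 were the 2 highest of the 7 libraries, which held for Fbxo32, Trim63, Pdk4, Klf9 and Ddit4l (5 of 10, as against 11.6% of all genes tested). In the lower pattern f/f 3 and control 4 were the 2 lowest, which held for Fbxo32, Trim63, Pdk4, Klf9, Fkbp5, Tsc22d3 and Ddit4 (7 of 10, as against 3.13%). The ligases, Pdk4 and Klf9 showed both. The lower pattern thus sets 1 library of each genotype apart, and the deviations of f/f 3 and control 4 from their group means over all genes had r = 0.48, the highest of the 12 pairs of an f/f library with a control. Samples were collected on 2 occasions, the second with 1 mouse of each genotype by the study's methods. The labels do not state which mice these were. The submitters' sample numbers of f/f 3 and control 4 are adjoining and stand apart from those of the other libraries. The part of the occasion in the pattern was not tested. Foxo1 and Foxo3 showed neither.

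Over the 7 libraries, log2 CPM of Fbxo32 and Trim63 had a Pearson r of 0.997 and a Spearman rho of 1, and each ranked first for the other among 15085 genes. Without f/f 1 and f/f 2, the libraries farthest from the median of Fbxo32, r was 0.994, so the relation did not rest on those libraries. These correlations are descriptions over 7 libraries that share parent crosses and cell makeup, and the genes were chosen with the values known. Klf9 followed Fbxo32 with r = 0.93 and rho = 1, and Pdk4 with r = 0.90 and rho = 0.93. Among the 15085 genes, from the highest r with Fbxo32 down, Klf9 ranked 70, Pdk4 173 and Foxo3 14277. Foxo3 ran opposite to these genes, with r = -0.83 with Fbxo32 and -0.88 with Klf9. Without control 4 and f/f 1, the libraries farthest from the median of Foxo3, the latter was -0.45. Foxo1 had an r of 0.32 with Fbxo32, and 0.034 without f/f 1 and f/f 2.

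A further pair was Tsc22d3 and Ddit4, with r = 0.93 and rho = 0.93, and r = 0.94 without control 4 and control 1. Fkbp5 had r = 0.85 with Ddit4 and 0.78 with Tsc22d3. The relation of Pdk4 to these genes rested on f/f 3 and control 4. Without these libraries its r with Fkbp5 went from 0.59 to -0.90, with Tsc22d3 from 0.74 to -0.20 and with Ddit4 from 0.78 to -0.070. Ddit4l had r = -0.072 with Ddit4 and 0.53 with Fbxo32, and the latter was -0.58 without f/f 1 and f/f 2. Over all 45 pairs the median r was 0.46, with 5 pairs above 0.9 and 12 below 0.

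**Figure D3:**
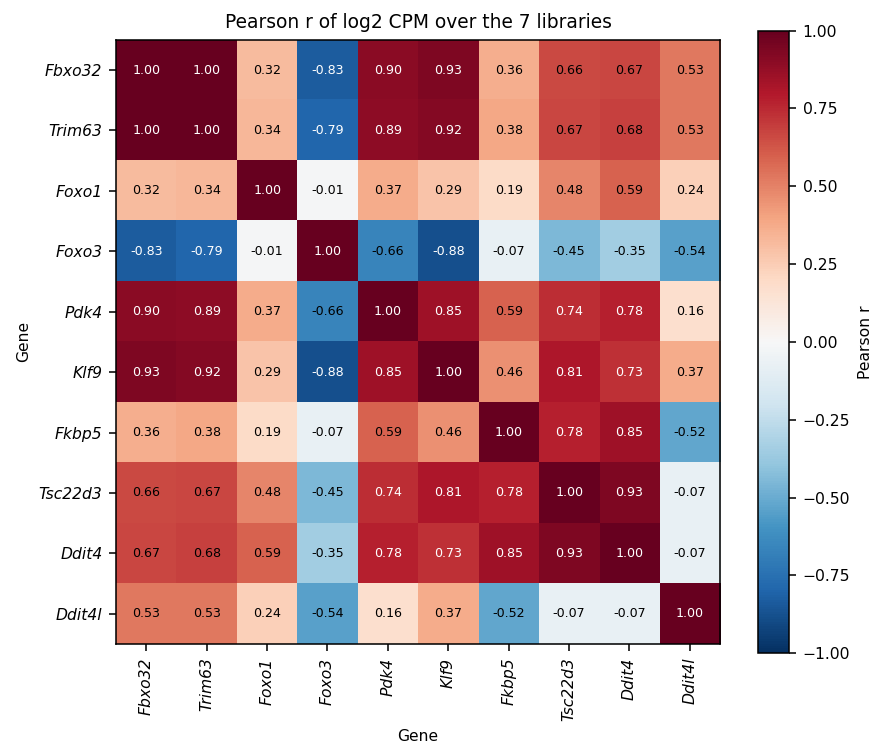
Pearson r of log2 CPM over the 7 libraries for each pair of the 10 genes (colour and printed value, red positive, blue negative). Fbxo32, Trim63, Pdk4 and Klf9 have r of 0.85 to 1.00 with each other, and Foxo3 is negative with all of the others.

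Among all genes tested, those most like Fbxo32 after Trim63 were Gadd45g (r = 0.993), Rbl2 (0.993), Klhl38 (0.987) and Retreg1 (0.987), over 7 libraries. Klhl38 had a log2 fold change of 1.85 and Retreg1, an endoplasmic reticulum receptor of selective autophagy, of 1.63. Those most like Trim63 included Klhl38, Gadd45g and Rbl2 again, with Lrrc30 (r = 0.984). The gene most like Klf9 was Osmr (0.992), a receptor subunit for oncostatin M, and the gene most like Pdk4 was 4632428C04Rik (0.983), followed by Klf11 (0.973). Foxo1 was followed most closely by Fbxo21 (0.988), another F-box ubiquitin ligase gene, and Foxo3 by Rnaseh2c (0.999) and Sirt7 (0.993). Hif3a (0.960) was nearest to Fkbp5 and Map3k6 (0.962) to Ddit4. Slc26a11 was nearest to Tsc22d3 (0.982) and also among the 5 nearest to Ddit4 (0.943). Fdx1 (0.978) was nearest to Ddit4l.

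The ligases are known as muscle genes. Muscle markers tended to be higher in the f/f libraries, although the groups were separate for 0 of the 20. Over all 15086 genes tested, they were separate in either direction for 1710. All 20 muscle markers had a log2 fold change above 0 (median 0.70), as against 7741 of the 15086 genes (median 0.01). With edgeR 5 of the 20 were higher at an unadjusted p under 0.05, as against 4.63% of all genes tested. At an adjusted p under 0.05, 0 passed with edgeR and 0 with DESeq2, as against 0.477% of all genes with DESeq2. The limma pipeline called 11, as against 14.9% of all genes. Their sum had r = 0.73 with Fbxo32, 0.70 with Trim63, 0.71 with Ddit4l, 0.50 with Pdk4 and -0.86 with Foxo3. It did not order the libraries as the ligases did. The muscle sums of f/f 3 and control 3 were near those of f/f 1, yet f/f 3 had 57.0 CPM of Fbxo32 and control 3 had 152 CPM. Per 1000 CPM of muscle markers, Fbxo32 was 9.53, 10.1 and 1.03 CPM in f/f 1 to f/f 3, and 4.12, 3.94, 2.53 and 1.30 CPM in control 1 to control 4. On this scale f/f 1 and f/f 2 remained the highest libraries, and f/f 3 rather than control 4 was the lowest. Trim63 and Pdk4 had the same highest and lowest libraries on it. Klf9 did not, at 2.20, 1.94 and 1.27 CPM in f/f 1 to f/f 3. In control 1 to control 4 it was 3.50, 3.34, 1.55 and 1.52 CPM. The groups of Ddit4l overlapped on this scale. It was 0.44, 0.44 and 0.49 CPM in f/f 1 to f/f 3, and 0.56, 0.48, 0.24 and 0.82 CPM in the controls. With the muscle sum as a covariate, a fit chosen after seeing the data, the log2 fold changes of the ligases were 0.80 for Fbxo32 and 1.01 for Trim63. In the same fit Pdk4 was at -0.48, Foxo3 at -0.080, Klf9 at 0.011 and Ddit4l at 1.01. The adjusted p was 0.9997 for each of the 10 genes in it (edgeR's quasi-likelihood test). Apart from control 3, every control had a lower muscle sum than any f/f library. The fit thus separates label and muscle sum poorly. The part of muscle RNA in the differences between genotypes was not tested beyond these values.

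**Figure D4:**
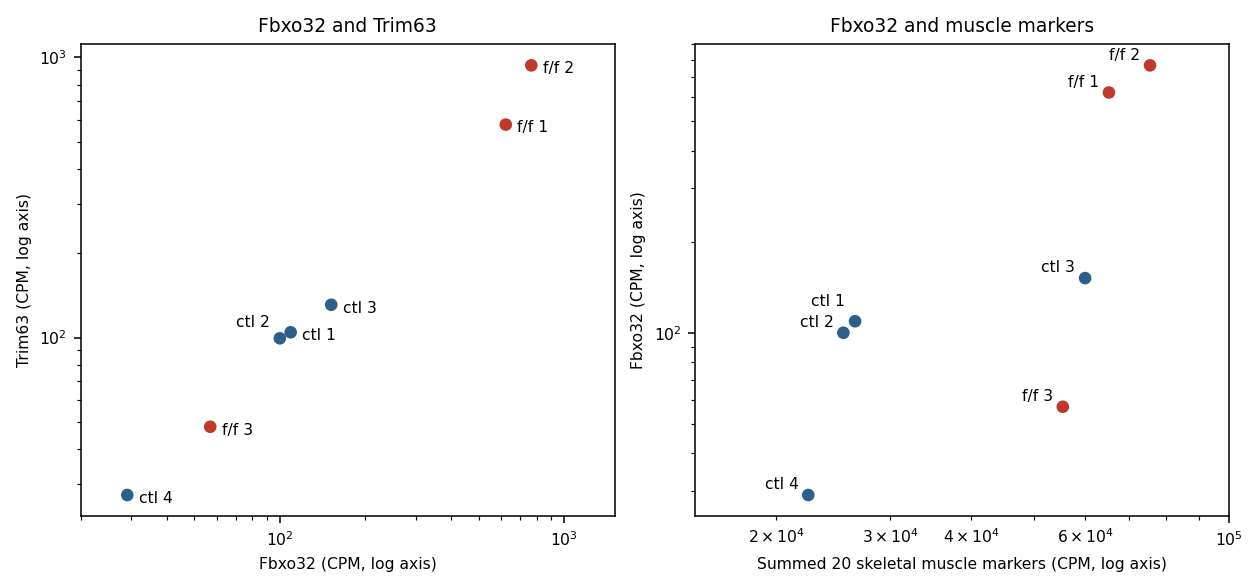
Left, Fbxo32 against Trim63, and right, the sum of 20 skeletal muscle markers against Fbxo32, in TMM-normalized CPM on log axes, with 1 point for each library (red, f/f; blue, ctl). On the left the 7 libraries lie along a line (r = 0.997), and on the right f/f 3 and ctl 3 have muscle sums of 55414 and 59984 CPM at 57.0 and 152 CPM of Fbxo32.

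Erythroid and neutrophil markers moved the other way, with a log2 fold change above 0 for 0 of 8 and 0 of 7. The sum of 8 erythroid markers ranged from 6684 to 13584 CPM over f/f 1 to f/f 3 and from 15634 to 43803 CPM over the controls, and 6 of the 8 were lower at an unadjusted p under 0.05. Over all genes tested, 5.03% were lower at that threshold. At an adjusted p, 0 passed with edgeR, 1 with DESeq2 and 3 with the limma pipeline. The counts by DESeq2 and the limma pipeline here stand beside their shares of 0.477% and 14.9% over all genes. Foxo3, a factor also active in red cell precursors, followed the erythroid sum with r = 0.97, and Klf9 ran opposite to it with r = -0.86. The sum of 7 neutrophil markers was 11873 to 14897 CPM against 16979 to 19844 CPM, with r = 0.90 for Foxo3. Of these 7, 1 was lower at an unadjusted p under 0.05 with edgeR, and the limma pipeline called 1. Adipocyte marker sums overlapped, at 395 to 873 CPM and 258 to 792 CPM, with r = 0.82 for Fbxo32, 0.78 for Pdk4 and 0.83 for Klf9, and Lep was at 0 in 1 library. The largest parts of the sum in f/f 1 and f/f 2 were Plin4 (388 and 429 CPM) and Fabp4 (268 and 223 CPM). Plin4 and Lep were highest in f/f 2 and Fabp4 in f/f 1. Plin1, Cidec, Cfd and Retn were highest in control 1 and Adipoq in control 4, so these r values do not hold for each marker. The limma pipeline called 6 of the 8 adipocyte markers, against 0 at any threshold given here with edgeR and 0 with DESeq2. Adipocyte markers did not share a direction, as 5 of the 8 had a log2 fold change above 0 with edgeR. Sums of osteocyte and osteoblast, osteoclast and B lineage markers overlapped between the groups. The limma pipeline called 1 of 10, 0 of 5 and 2 of 5 of them in the same order. Of the 5 B lineage markers, 4 had a log2 fold change above 0. The endothelial sum was 374 to 450.3 CPM against 288 to 377 CPM, with r = 0.88 for Ddit4l, and the limma pipeline called 4 of its 5 markers. With edgeR 2 of the 5 were higher at an unadjusted p under 0.05, as against 4.63% of all genes tested. The part of these cell types in the levels of the 10 genes was not tested.

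The only parent cross with both genotypes held f/f 3 and control 3, a single library of each, so its differences have no replicate check. Within it, f/f 3 was lower than control 3 by a log2 difference of -1.41 for Fbxo32, -1.44 for Trim63, -4.21 for Pdk4 and -0.40 for Klf9, the opposite sign to that over all libraries. Foxo3 differed by 0.023 within the cross. Ddit4l kept its direction, with a log2 difference of 0.88. The labels do not give whether f/f 3 and control 3 were collected on the same occasion, and their sample numbers are not adjoining. Control 4 has the sample number next to f/f 3 but came from another cross. Against it, f/f 3 was higher for Fbxo32 (57.0 and 29.1 CPM), Trim63 (48.0 and 27.4 CPM) and Klf9 (70.5 and 34.0 CPM). For Pdk4 f/f 3 was lower (36.4 and 56.1 CPM). The part of the occasion was not tested. Because f/f 1 and f/f 2 came from a cross with no control, their label and their cross cannot be told apart. Without f/f 3, the log2 fold change over the remaining libraries was 2.83 for Fbxo32 and 3.06 for Trim63.

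**Figure D5:**
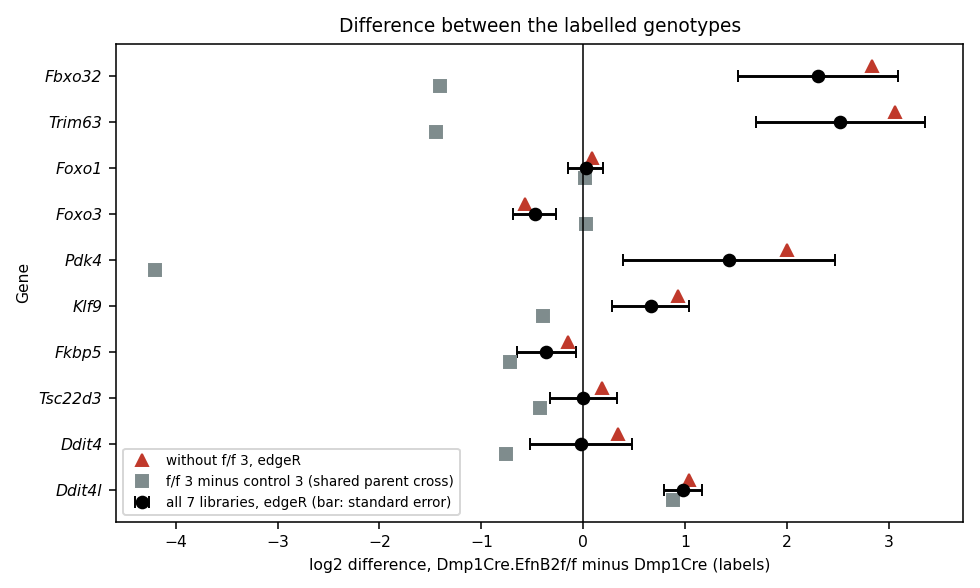
Log2 difference between libraries labelled Dmp1Cre.EfnB2f/f and Dmp1Cre controls (horizontal axis) for each gene, over all 7 libraries (black circles, bars are standard errors), without f/f 3 (red triangles) and between f/f 3 and control 3 alone (grey squares). For Fbxo32 the values are 2.30, 2.83 and -1.41, and for Ddit4l the last is 0.88.

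Compared per length, as CPM per kilobase of counted transcript (RPKM) in the controls, Tsc22d3 was highest at 107 ± 38.2 RPKM (SD, n = 4). It was followed by Pdk4 at 99.8 ± 76.1, Foxo3 at 63.9 ± 13.4, Ddit4 at 54.2 ± 30.1 and Trim63 at 48.0 ± 23.5 RPKM. Fkbp5 was at 32.4 ± 9.86, Klf9 at 23.3 ± 8.67, Fbxo32 at 14.1 ± 7.33, Foxo1 at 6.64 ± 1.12 and Ddit4l at 5.51 ± 0.945 RPKM. Each gene's range over the controls overlapped that of its neighbours in this order. On this scale Trim63 was above Fbxo32 in every library, for example at 497 and 110.3 RPKM in f/f 2. Fbxo32, Foxo3, Klf9 and Fkbp5 overlap other annotated genes, of which Mir1192 in Klf9 was counted, with at most 36 counts in a library.

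The other genes of these pathways were counted with edgeR's quasi-likelihood test over all genes, as above, and as lists chosen with these data known. By DESeq2, 0 genes of these 5 lists passed an adjusted p under 0.05, as against 0.477% of all genes. The counts by the limma pipeline stand beside its share of 14.9% over all genes. Those by unadjusted p stand beside 4.63% higher and 5.03% lower over all genes. Of 12 further ubiquitin ligases linked to atrophy, 0 passed the adjusted threshold and 3 were higher at an unadjusted p under 0.05, with a median log2 fold change of 0.24 against 0.01 over all genes. The 3 were Fbxo40 (0.76, standard error 0.28), Trim54 (0.92, standard error 0.25) and Trim55 (1.09, standard error 0.30), all of them muscle genes. The limma pipeline called these and Fbxo31 (4 of 12). Trim54 was at 49.8, 65.4 and 52.7 CPM in f/f 1 to f/f 3 and at 31.6, 22.6, 42.4 and 21.8 CPM in the controls. Unlike Trim63, its close relative, it was not low in f/f 3.

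Of 18 further FOXO family members and FOXO-responsive genes, 0 passed the adjusted threshold and Bnip3 alone was at an unadjusted p under 0.05 (median log2 fold change 0.06, or -0.040 without f/f 1 and 0.11 without f/f 3). The limma pipeline called 4 of 18, which were Bnip3, Txnip, Sod2 and Gabarapl1. Bnip3, a mitochondrial receptor of selective autophagy, was at 76.1, 56.1 and 40.1 CPM in f/f 1 to f/f 3 and at 30.2, 26.2, 29.9 and 12.3 CPM in the controls, without overlap. Txnip, an inhibitor of glucose uptake, was at 1190.4, 1451 and 585 CPM in f/f 1 to f/f 3 and at 591 to 880 CPM in the controls, lowest in f/f 3.

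Of 16 further genes of glucocorticoid signalling, 0 passed the adjusted threshold, 1 was higher and 1 was lower at an unadjusted p under 0.05 (median log2 fold change 0.18). Single libraries decided this median, which was -0.036 without f/f 1, 0.058 without f/f 2, 0.45 without f/f 3, 0.37 without control 1 and 0.052 without control 4. The limma pipeline called 4 of 16, which were Nr3c2, Hsd11b1, Sgk1 and Klf15. The higher one was Nr3c2, the mineralocorticoid receptor (0.76, standard error 0.21), and the lower one was Lcn2, which neutrophils also express (-0.55, standard error 0.22). Nr3c1, the glucocorticoid receptor, was at 187 to 198 CPM in f/f 1 to f/f 3 and at 120.4 to 186 CPM in the controls. The pattern in which f/f 3 and control 4 were the lowest libraries (3.13% of all genes) held for 5 of these 16 genes, 2 of the 12 ligases, 3 of the 18 FOXO genes, 1 of the 9 mTORC1 genes and 0 of the 5 kinases and phosphatases given below. One of the 16 was Zbtb16, a transcription factor induced by glucocorticoids, at 112, 105 and 43.9 CPM in f/f 1 to f/f 3 and at 112, 73.7, 93.2 and 26.4 CPM in the controls.

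Of 9 further mTORC1 genes, 0 passed the adjusted threshold and Mlst8, a subunit of the complex, was lower at an unadjusted p under 0.05 (-0.51, standard error 0.19; list median -0.18), the 1 gene of the list that the limma pipeline called. This median was -0.062 without control 4, and above 0 in some of the alternatives. Of the 5 other pyruvate dehydrogenase kinases and phosphatases, 0 passed the adjusted threshold and Pdk2 was higher at an unadjusted p under 0.05 (0.62, standard error 0.21; list median 0.55), again the 1 gene called by the limma pipeline. The median was 0.22 without f/f 1. Pdk2 was at 51.3 to 65.6 CPM in f/f 1 to f/f 3 and at 26.5 to 45.8 CPM in the controls, and unlike Pdk4 it was not low in f/f 3.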

How the data were processed

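mRNA libraries (TruSeq) from flushed femora of 7 mice were analysed, 3 labelled Dmp1Cre.EfnB2f/f and 4 labelled Dmp1Cre. The authors mapped paired reads to mm10 with Rsubread and deposited raw counts per Entrez gene from featureCounts, without normalization. The strand setting was not given in the sources used here. Reads were demultiplexed with bcl2fastq 2.17.1.14 per the submitters' processing notes.

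The study's minimum of 0.65 CPM, reached in 3 or more libraries, kept 16302 genes, and 1216 were left out by class, after the study's filter (immunoglobulin segments, ribosomal RNA, predicted and pseudogenes, Y-linked genes and Xist). Genes with no symbol (184) were left out where the study left out obsolete identifiers. The main test was edgeR's robust quasi-likelihood test (version 4.0.16, R 4.3.3) on TMM-scaled counts. P-values were adjusted by Benjamini-Hochberg over 15086 genes, with a threshold of 0.05. Each standard error was derived from the fold change and its F statistic. Correlations used log2 CPM with a prior count of 2. The test was tried on simulated counts. DESeq2 1.42.0, limma 3.58.1, other scalings and filters, blocks and left-out libraries were alternatives. The study blocked on the day of collection, which the labels do not give, so no day term was fitted and its part was not tested. By the series' description each library is a separate mouse, and every pair in a group differed by more than sampling noise.

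The 10 genes, the lists and the alternatives were chosen with earlier results of these data known. The gene classes' symbol patterns, the upper and lower patterns, the muscle covariate and leaving out control 1 and control 4 together were settled after seeing the data. Genes named are the 10, Efnb2, members of the lists, and the 5 genes with the highest Pearson r with each of the 10.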

Additional observations from a re-analysis of the deposited data

Results flagged for a closer look

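Among the 4 controls, 3 of 23 quantities had a library whose gap to the next, divided by the range, was above Dixon's 95% critical value for 4 samples. Chance gives about 1 in 20. Klf9 was lowest in control 4 (gap 0.865 of the range), at 34.0 CPM against 84.9 to 92.8 CPM. The sum of skeletal muscle markers was highest in control 3 (0.892), at 59984 CPM against 22418 to 26477 CPM. The sum of erythroid markers was highest in control 4 (0.843), at 43803 CPM against 15634 to 20055 CPM.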

How the results depend on the processing

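Library depth was similar throughout, and every count of the 10 genes was at least 214. The cause of each change below was not tested. Genes called higher numbered 24 with DESeq2, 1134 with the limma pipeline without a day term, and 0 to 1 with any one library left out. Genes called lower numbered 48, 1118, and 0 to 2 in the same order. Of the 10 genes, 1 passed with DESeq2 (Ddit4l, log2 fold change 0.95, adjusted p = 0.00353) and 4 with limma (Fbxo32, adjusted p = 0.0425, Trim63, 0.0451, Klf9, 0.0348, and Ddit4l, 0.00291). Leaving out control 1 and control 4 together, chosen after seeing the data, called 1 gene higher and 1 lower, none of the 10.

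The replicate numbers of the titles did not pair the libraries (correlations of deviations -0.14, 0.063 and -0.42 for numbers 1 to 3). With the replicate block, which also leaves out control 4, 1 gene was called higher and 0 lower, and Tsc22d3 was at -0.23, the one reversal. Without control 4 and with no block, Tsc22d3 was at -0.21. With the parent cross as a block, which rests on f/f 3 and control 3, 6 of the 10 reversed: Fbxo32 to -1.41, Trim63 to -1.45, Foxo3 to 0.023, Pdk4 to -4.21, Klf9 to -0.40 and Tsc22d3 to -0.42. With the muscle covariate, also chosen after seeing the data, Pdk4 was at -0.48 and Tsc22d3 at -0.26, and 346 genes had an unadjusted p under 0.05.

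Foxo1, Tsc22d3 and Ddit4, all near 0, had no stable sign. Foxo1 was at -0.0017 with DESeq2 and from -0.042 to 0.14 with one library left out. Tsc22d3 was at -0.026 with DESeq2, -0.0046 with no filter, -0.0080 with all gene classes, -0.033 without control 1 and control 4, and from -0.21 to 0.21 with one library left out. Ddit4 was at 0.36 with limma, 0.039 with library size only, 0.11 without control 1 and control 4, and from -0.33 to 0.38 with one library left out. Ddit4l was above 0 under every alternative run. Its groups overlapped per 1000 CPM of muscle markers, a scale that was not among these alternatives.

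Medians of the lists moved by less than the spread between replicates in 82 of 90 cases, a wide margin that includes changes of sign. The glucocorticoid list was at -0.067 with the replicate block and -0.21 with the cross block. The FOXO list was at -0.047 with the cross block. The mTORC1 list was at 0.036 with limma, 0.018 with the cross block, 0.058 with the muscle covariate and 0.077 without control 1 and control 4. The kinases and phosphatases were at 0.30, -0.060, 0.10 and 0.27 in the same order, and the further ligases at 0.051 with the cross block.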
